A study of Danio rerio with 6 samples.

Results

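The Iroquois homeobox genes of the zebrafish were examined in sphere stage embryos injected with a morpholino against the pluripotency factor Nanog. Members were targets of the array design whose gene name is irx followed by a digit, with older symbols, RefSeq accessions and map markers also used for naming and reverse-strand targets left out. This rule found 9 genes, each with 1 target: irx1a, irx1b, irx2a, irx3a, irx3b, irx4b, irx5a, irx5b and irx6a. The array measured 38489 targets, of which 14689 could be given a gene symbol, for 10575 genes in all. Of 8 genes proposed for the family, 6 had a target by this rule. No target resolved to irx4a or irx7 by name, so these 2 genes were not analysed here under their own names, and irx3b, irx5b and irx6a came in addition. A further 5 targets carried no usable gene name but were described in the design as similar to an Iroquois gene, and they were followed separately under their design identifiers.

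The groups were embryos injected with nanog-like-MO1 (3 arrays, phenotype label gastrulation defect) and embryos injected with control-MO (3 arrays, phenotype label normal), all kept in E3 water. A morpholino is a synthetic antisense oligo that blocks translation or splicing of the RNA it pairs with. The labels do not state which of these MO1 does, nor a dose, a fish strain or how many embryos were pooled. Total RNA of the whole embryo was labelled with Cy3 and hybridised to 1-colour NimbleGen arrays, with replicates described as coming from separate cultures. In whole-embryo RNA, fewer cells of a type and less RNA per cell cannot be told apart.

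Iroquois proteins are transcription factors of the TALE homeodomain class, named for extra residues in a loop of the homeodomain. They are known from fly, frog and fish for setting up territories of the neural plate where proneural genes can act, and in fish and mammals they later pattern the brain, heart, retina and kidney. Vertebrate Iroquois genes lie in conserved clusters, and the teleost genome duplication left several of them as pairs with the suffixes a and b. A RefSeq gene table (assembly GRCz12tu) listed 11 zebrafish Iroquois genes: 3 on chromosome 16, 2 on chromosome 19, 3 on chromosome 7, 2 on chromosome 25 and 1, irx7, on chromosome 23. The sphere stage is a late blastula stage shortly after the zygotic genome has been switched on, well before a neural plate exists.

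The arrays were of similar brightness, with raw median intensities between 408 and 529. Raw intensities were background corrected (normexp), quantile normalized and expressed as log2 values, on which the 25th percentile of target means was 6.74 and the median 8.66. Targets below the 25th percentile are called dim here. Because of the background offset, differences of dim targets are understated, and because probes differ between targets, the level of one target does not show that its transcript is more abundant than that of another. Each target was tested with limma, its p-values being adjusted across the 38489 targets (Benjamini-Hochberg) and called below an adjusted p of 0.05. The transcript of nanog itself averaged 14.89 ± 0.06 in nanog-like MO1 embryos and 14.91 ± 0.06 in control MO embryos (SD, n = 3 each), and these groups overlapped (2-sided exact permutation p = 0.7). An antisense oligo need not lower the RNA of its target, so this level does not check the labels.

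Of the 9 Iroquois genes, irx1b was lower in nanog-like MO1 embryos, none was higher, and the other 8 did not pass the test. Across all targets, 0.39% passed as lower and 0.257% as higher. At an unadjusted p under 0.05, 3 Iroquois genes were lower and 1 was higher, where 10.3% of all targets passed in either direction. The median log2 difference of the 9 genes was -0.08, with a range of -3.65 to 1.09. Over all targets the median was -0.012 and the range -4.65 to 3.39. The groups did not overlap for 4 of the 9 genes, irx1a and irx1b lower and irx3a and irx3b higher, where 7.97% of all targets were lower and 7.36% higher without overlap. Which Irx1 copy the target counted as irx1a measures is uncertain, so the counts of lower genes may hold irx1b more than once.

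**Figure D1:**
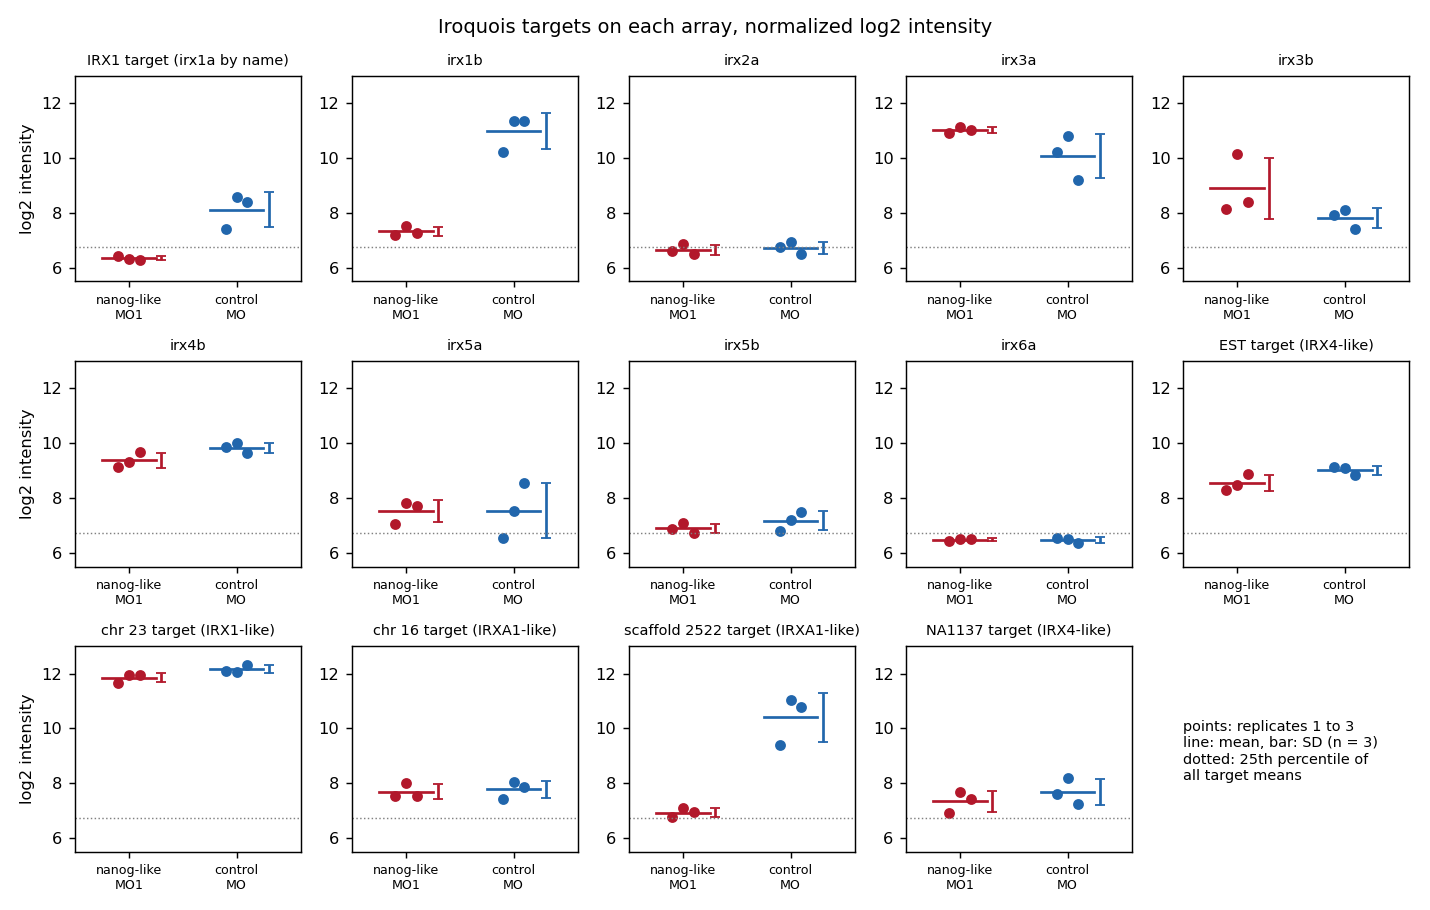
Normalized log2 intensity (vertical axis) of each Iroquois target on every array, with nanog-like MO1 (red) left of control MO (blue). Points are replicates 1 to 3, horizontal lines are means and bars are SD (n = 3). The irx1b target and the unnamed scaffold target similar to IRXA1 show 3 nanog-like MO1 arrays well below 3 control arrays, while irx2a and irx6a lie near the dotted 25th percentile of all target means (6.74) in both groups.

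The largest differences of the family lay in the irx1b target and in Irx1-like targets of a scaffold, which may measure the same gene. The Irx1-like targets on chromosomes 16 and 23 differed by -0.09 and -0.30 and did not pass the limma test. The gene irx1b encodes an Iroquois factor that is expressed in the neural plate of zebrafish after gastrulation begins. Its target (OTTDART00000017876, Zv7 chromosome 19, 16478778 to 16481782, 9 probes) had raw intensities of 202, 195 and 244 in nanog-like MO1 replicates 1, 2 and 3. The raw intensities of control MO replicates 1, 2 and 3 were 1281, 2701 and 2511. On the normalized log2 scale these became 7.20, 7.51 and 7.28 in nanog-like MO1 embryos, against 10.22, 11.35 and 11.37 in control MO embryos. All 3 nanog-like MO1 arrays were low and close together, all 3 controls were high, and control replicate 1 was the lowest of the controls. The log2 difference was -3.65 (SE 0.32, 95% interval -4.42 to -2.88), a 12.6-fold lower intensity, with a limma adjusted p of 0.00703. In the authors' RMA values the difference was -4.17, with a limma adjusted p of 0.00102. The mean in nanog-like MO1 embryos, 7.33, remained above the dim level. In control MO embryos its 9 probes disagreed, with a coefficient of variation across probes of 1.135 to 1.398. Whether the difference rests on a few bright probes was not tested.

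The arrays carry numbers that fall into 3 ranges, and this grouping is uneven between the conditions. All 3 controls and nanog-like MO1 replicate 3 share 1 range, while nanog-like MO1 replicates 1 and 2 each lie in a range alone. Inside the shared range, irx1b in nanog-like MO1 replicate 3 lay 3.70 below the control mean (log2 difference -3.70). With the range as a term that same value rests on 1 nanog-like MO1 array, and the limma adjusted p for irx1b was 0.208. In that fit no target of the 38489 passed and 3580 had an unadjusted p under 0.05, 2 of them Iroquois genes. Whether the number range stands for a batch of slides or runs is not stated in the labels.

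The target named IRX1 in the design resolves to irx1a through an older symbol (ENSDART00000097268, Zv7_scaffold2522, 247370 to 247627, 258 bp, 10 probes). Its raw intensities were 134, 103 and 152 in nanog-like MO1 replicates 1 to 3, against 214, 399 and 355 in control replicates 1 to 3. The normalized log2 values were 6.43, 6.32 and 6.30 in nanog-like MO1 embryos, against 7.41, 8.57 and 8.39 in control MO embryos. All 3 nanog-like MO1 arrays were dim and below every control, and control replicate 1 was again the lowest control. Its log2 difference was -1.77 (SE 0.30, 95% interval -2.48 to -1.06) and did not pass the limma test at an adjusted p of 0.0870. It passed under 6 of 15 alternatives. Among these were the authors' RMA values, where the difference was -3.27 (limma adjusted p 0.0115), and leaving out control replicate 1, where it was -2.13 (limma adjusted p 0.00960). It did not pass when any other single array was left out, with limma adjusted p-values up to 0.272.

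An unnamed target on the same scaffold, similar to the IRXA1 entry of the design (ZV700S00000745, Zv7_scaffold2522, 55451 to 58408, 7 probes), behaved much like irx1b. Its raw intensities were 160, 152 and 204 in nanog-like MO1 embryos and 733, 2170 and 1673 in control MO embryos, each in the order of replicates 1, 2 and 3. The normalized log2 values were 6.76, 7.08 and 6.94 in nanog-like MO1 embryos, against 9.39, 11.05 and 10.78 in control MO embryos. The 3 nanog-like MO1 arrays lay near the dim level and the controls were bright, with control replicate 1 below the other controls. The groups differed by -3.48 on the log2 scale (SE 0.42, 95% interval -4.49 to -2.47), with a limma adjusted p of 0.0258. This call was lost when any 1 array other than control replicate 1 was left out, with limma adjusted p-values up to 0.124, and without background correction (-3.06, limma adjusted p 0.0571).

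The placement of these Irx1 targets in the design leaves the copy they measure uncertain. The scaffold that holds the IRX1 target and ZV700S00000745, 189 kb apart, also holds a target of med10, a Mediator subunit. It also holds a target named NSUN2 (1 of 2), after an RNA methyltransferase. On Zv7 chromosome 19, targets of med10 and nsun2 also lie beside irx1b, both to its left, with med10 the nearer. On the scaffold the order is ZV700S00000745, med10, NSUN2 and the IRX1 target. There ZV700S00000745 lies beside med10, and the IRX1 target lies beyond NSUN2. Position therefore does not settle which copy the IRX1 target measures, and its design name resolves to irx1a. Probe sequences, which would settle cross-hybridisation, were not used here. Within each array the IRX1 target minus irx1b was -0.77, -1.19 and -0.98 in nanog-like MO1 replicates 1 to 3, against -2.81, -2.78 and -2.99 in control replicates 1 to 3. The shift in this difference between the groups was 1.88, the groups did not overlap, and the 2-sided exact permutation p of 0.1 is the smallest that 3 against 3 arrays allow. The shift was 0.90 in the authors' RMA values and 1.97 without background correction. The IRX1 target averaged 8.12 in control MO embryos and was dim in nanog-like MO1 embryos, where the lowest normalized value on any target was 5.66. It thus had no room to fall by the -3.65 of irx1b. The shift and its permutation p therefore do not show that the 2 transcripts changed unequally.

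**Figure D2:**
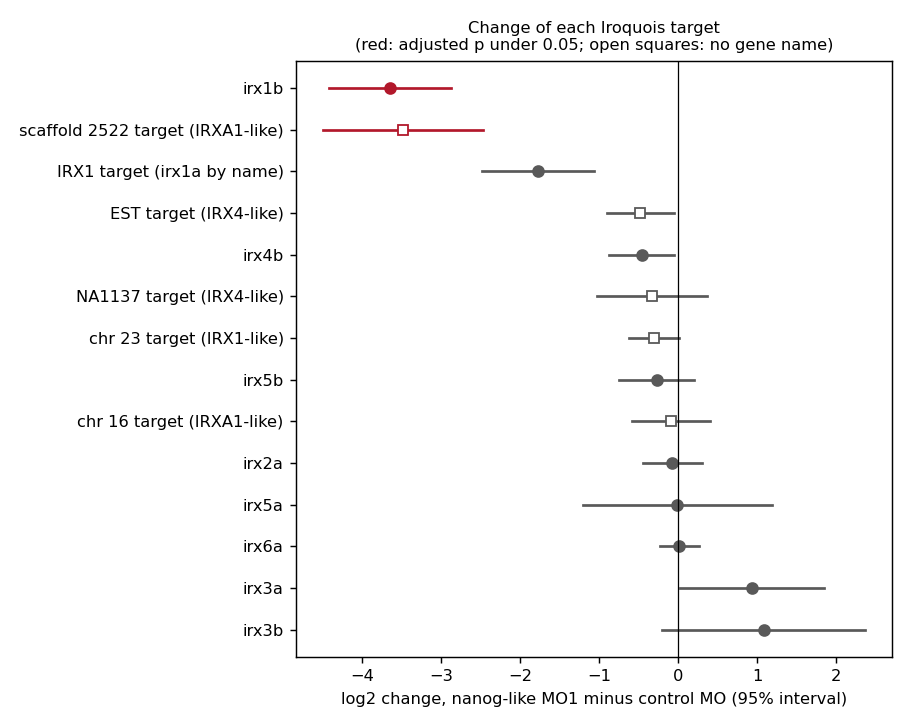
Log2 difference (horizontal axis, nanog-like MO1 minus control MO) of the 14 Iroquois targets with 95% intervals. Red marks limma adjusted p under 0.05 and open squares are targets without a gene name. The irx1b target at -3.65 and the unnamed scaffold target similar to IRXA1 at -3.48 stand to the left, and the irx3a and irx3b targets lie to the right of 0.

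A target on chromosome 23 that the design describes as similar to IRX1 (ZV700S00000737, Zv7 43358578 to 43359896, 12 probes) was bright in both groups. Its normalized log2 values were 11.67, 11.96 and 11.93 in nanog-like MO1 embryos, against 12.11, 12.05 and 12.32 in control MO embryos. Every nanog-like MO1 array was below every control, by a small margin. The difference between the groups was -0.30 (SE 0.13, 95% interval -0.62 to 0.01) and did not pass the limma test (adjusted p 0.501). The RefSeq table places 1 Iroquois gene, irx7, on chromosome 23. Whether this target measures irx7 was not tested by sequence. Another target similar to IRXA1 (ZV700S00000741, Zv7 chromosome 16, 15208092 to 15212248) averaged 7.69 ± 0.26 in nanog-like MO1 embryos and 7.78 ± 0.31 in control MO embryos (SD, n = 3 each), with overlapping groups and a limma adjusted p of 0.943. The RefSeq table places irx1a on chromosome 16, together with irx2a and irx4a. Whether ZV700S00000741 measures irx1a was not tested by sequence.

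The gene irx2a is a member of the Irx2 class, whose genes sit between Irx1 and Irx4 in vertebrate clusters. Its target (NM_201057, Zv7 chromosome 16, 884306 to 888788) read 6.61, 6.86 and 6.50 in nanog-like MO1 embryos, against 6.77, 6.93 and 6.50 in control MO embryos. Both groups were around the dim level and overlapped. The log2 difference was -0.08 (95% interval -0.45 to 0.30, limma adjusted p 0.934), and at this brightness a difference in the transcript could be missed.

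The Irx4 class is known from mouse and chick for a role in ventricular heart muscle. The irx4b target (OTTDART00000017877, Zv7 chromosome 19, 16607200 to 16613100, 12 probes) read 9.15, 9.30 and 9.68 in nanog-like MO1 embryos. In control MO embryos it read 9.88, 10.00 and 9.64. Nanog-like MO1 replicates 1 and 2 lay below all controls, and replicate 3 overlapped with control replicate 3. The log2 difference was -0.46 (SE 0.17, 95% interval -0.88 to -0.05), which did not pass the limma test (adjusted p 0.430). Nanog-like MO1 replicate 3, which shares the array number range of the controls, differed from the control mean by only -0.16. An expressed sequence tag of the same UniGene cluster as the irx4b target (BQ264060), described as similar to IRX4, read 8.28, 8.47 and 8.86 in nanog-like MO1 embryos, against 9.13, 9.08 and 8.83 in control MO embryos. Its groups overlapped in the same way, through nanog-like MO1 replicate 3 and control replicate 3, and its difference was -0.48 (SE 0.18, limma adjusted p 0.421). Here too nanog-like MO1 replicate 3 differed from the control mean by -0.16. These targets share a transcript cluster and are not separate evidence. The third IRX4-like target (ZV700S00004618, Zv7_NA1137, 18995 to 23777) averaged 7.34 ± 0.39 in nanog-like MO1 embryos and 7.67 ± 0.47 in control MO embryos (SD, n = 3 each), with overlapping groups and a limma adjusted p of 0.798.

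The Irx3 genes, known in chick and mouse for positioning neuron types in the ventral neural tube, had the highest positive differences in the family on this scale. In the authors' RMA values irx5a was higher, at 1.08, with irx3a at 0.69 and irx3b at 0.56, and none of these passed the limma test. The irx3a target (ZV700S00006366, named by map marker, Zv7 chromosome 7, 27482076 to 27485395) had normalized log2 values of 10.91, 11.12 and 11.01 in nanog-like MO1 embryos. Control MO embryos had 10.24, 10.80 and 9.20. The nanog-like MO1 arrays were close together and above every control, and control replicate 3 was far below the other controls. The mean log2 difference, 0.93 (SE 0.38, 95% interval 0.02 to 1.85), did not pass the limma test (adjusted p 0.477) and was 0.49 without control replicate 3.

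The irx3b target (NM_213100, Zv7 chromosome 25, 29332251 to 29336918) had normalized log2 values of 8.13, 10.16 and 8.39 in nanog-like MO1 embryos, against 7.91, 8.11 and 7.40 in control MO embryos. The groups did not overlap, but nanog-like MO1 replicate 1 lay just above control replicate 2, and nanog-like MO1 replicate 2 was far above the rest. The log2 difference was 1.09 (SE 0.53, 95% interval -0.20 to 2.37, limma adjusted p 0.572) and was 0.45 without nanog-like MO1 replicate 2. Its probes disagreed with each other, with a coefficient of variation across probes of 1.227 to 1.706 in nanog-like MO1 embryos and 0.752 to 1.483 in control MO embryos. The same measure was 1.241 to 1.396 in nanog-like MO1 embryos and 0.908 to 1.518 in control MO embryos for irx3a, and 0.455 to 0.764 in nanog-like MO1 embryos and 1.135 to 1.398 in control MO embryos for irx1b.

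The Irx5 and Irx6 genes neighbour Irx3 in vertebrate clusters, and in mouse Irx5 shapes the gradient of potassium current across the heart wall. The irx5a target (OTTDART00000013557, Zv7 chromosome 7, 21138613 to 21142111) read 7.06, 7.83 and 7.70 in nanog-like MO1 embryos, against 6.54, 7.54 and 8.54 in control MO embryos. The controls spanned the whole nanog-like MO1 range. The log2 difference of -0.01 had a wide 95% interval of -1.21 to 1.19 (limma adjusted p 0.999). A change within these bounds in either direction remains compatible with the values, and the bounds are not a detection limit.

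The irx5b target (NM_001001405, no position in the design) read 6.88, 7.08 and 6.74 in nanog-like MO1 embryos and 6.81, 7.21 and 7.50 in control MO embryos. The groups overlapped, and the log2 difference was -0.27 (95% interval -0.75 to 0.20, limma adjusted p 0.745). It was -0.454 without control replicate 1, -0.106 without control replicate 3 and -0.058 with reference gene centring. The irx6a target (OTTDART00000025226, Zv7 chromosome 7, 21332652 to 21337144) read 6.43, 6.52 and 6.50 in nanog-like MO1 embryos, against 6.55, 6.50 and 6.36 in control MO embryos. It was dim on all 6 arrays, with a log2 difference of 0.01 (95% interval -0.23 to 0.26, limma adjusted p 0.989).

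The arrangement of the family on the chromosomes gives a comparison of neighbouring genes. On Zv7 chromosome 19, irx1b and irx4b lie 125 kb apart. Within each array, irx1b minus irx4b was -1.95, -1.79 and -2.40 in nanog-like MO1 replicates 1 to 3, against 0.35, 1.35 and 1.73 in control replicates 1 to 3. These values are a description with no test, because the pair was picked for the call on irx1b. On chromosome 7, irx5a and irx6a lie 191 kb apart, and neither passed. The irx3a target, named by map marker, lies 6340 kb from irx5a and 6145 kb from irx6a in the design.

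Targets outside the family within 500 kb of an Iroquois target were examined next. The 17 such targets around irx1b had a median log2 difference of -0.01 and a range of -0.21 to 0.69. None of the 17 passed the limma test, and none had an unadjusted p under 0.05. Around all named Iroquois targets except irx5b, which has no position, there were 135 distinct neighbours. Their median was -0.03 and their range -0.82 to 0.69. None of the 135 passed the limma test, where 0.647% of all targets passed in either direction. At an unadjusted p under 0.05 there were 12, 7 lower and 5 higher, where 10.3% of all targets passed. The nearest neighbour with a gene symbol to the right was ndufs6, a subunit of mitochondrial complex I beside irx4b, at 7.40 ± 0.14 in nanog-like MO1 embryos and 7.38 ± 0.22 in control MO embryos (SD, n = 3 each, limma adjusted p 0.987). The nearest with a symbol to the left was amfra, an E3 ubiquitin ligase gene 51.3 kb from irx3b, at 12.48 ± 0.22 in nanog-like MO1 embryos and 12.48 ± 0.02 in control MO embryos (SD, n = 3 each, limma adjusted p 0.9998).

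**Figure D3:**
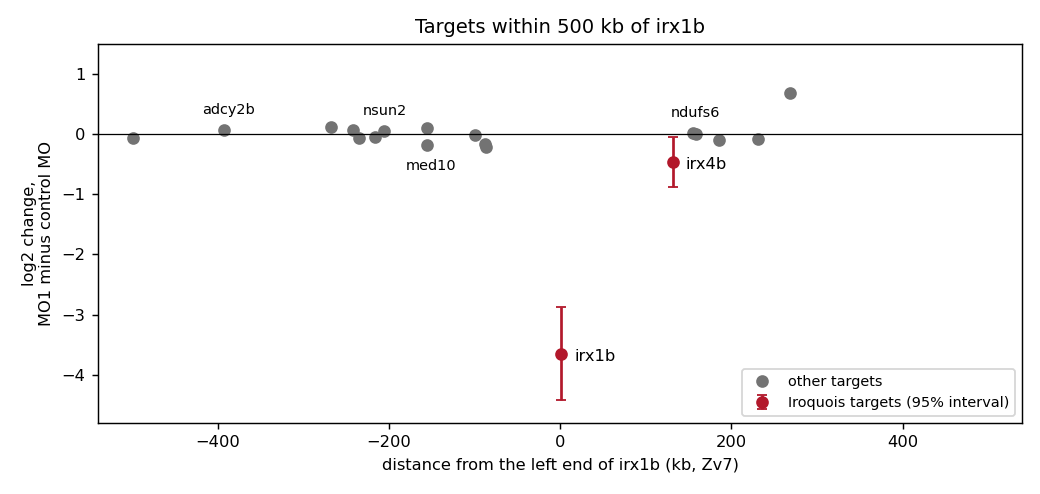
Log2 difference (vertical axis, nanog-like MO1 minus control MO) of targets within 500 kb of irx1b, by distance in kb on Zv7 (horizontal axis). Iroquois targets are red with 95% intervals and other targets are grey. The 17 grey neighbours lie between -0.21 and 0.69, while irx1b lies at -3.65 and irx4b at -0.46.

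The genes whose profile over the 6 arrays was most like that of irx1b were looked up by Euclidean distance between log2 profiles, each centred on its own mean. They were arl4ab (distance 0.80), hnf4a (0.83), zgc:112332 (0.85), vox (0.89) and morc3b (0.89), where the median gene lay at 4.56. The arl4ab product is a small GTPase of the Arf-like family, vox encodes a homeodomain repressor of dorsal fate, and hnf4a encodes a nuclear receptor of yolk, liver and gut epithelia. Over all targets, named or not, the nearest was the Iroquois-like ZV700S00000745 at 0.44. The IRX1 target lay at 2.33, and the other Iroquois targets at 4.06 to 6.07. The arl4ab target averaged 8.49 ± 0.29 in nanog-like MO1 embryos and 11.60 ± 0.48 in control MO embryos, and the vox target averaged 8.91 ± 0.20 in nanog-like MO1 embryos and 11.96 ± 0.36 in control MO embryos (SD, n = 3 each). The morc3b target averaged 7.27 ± 0.23 in nanog-like MO1 embryos and 10.79 ± 0.32 in control MO embryos (SD, n = 3 each).

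**Figure D4:**
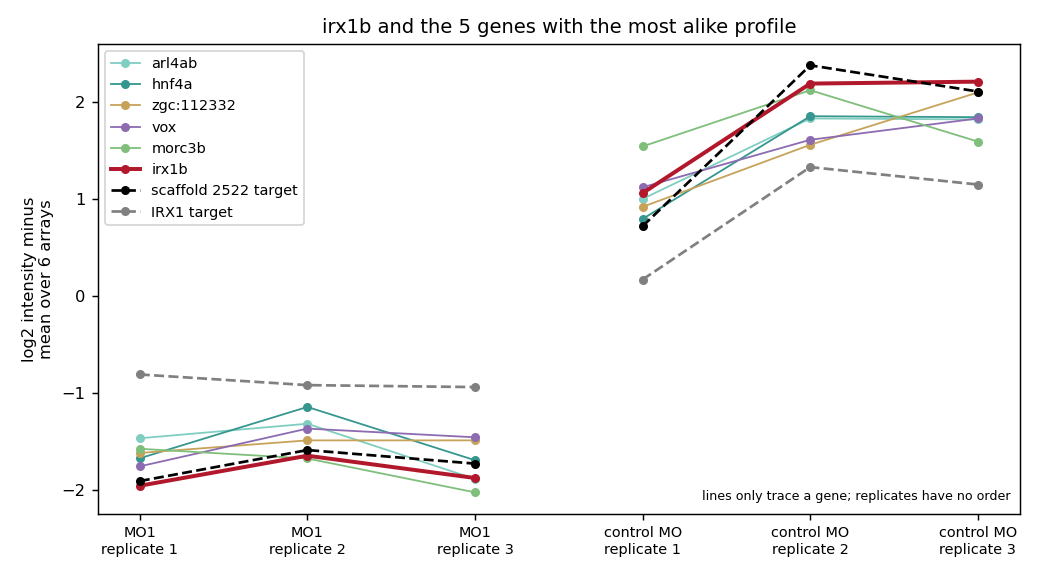
Log2 intensity minus the target's mean over 6 arrays (vertical axis) for irx1b (red), its 5 most alike genes (colours) and the 2 scaffold Irx1 targets (dashed), on each nanog-like MO1 and control MO array (horizontal axis). All profiles are low on the 3 nanog-like MO1 arrays and high on the 3 control arrays, and control replicate 1 is the lowest control for each. The 5 genes were picked for likeness to irx1b on these same arrays, so their shared shape follows from the choice.

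Control replicate 1 stood apart from the other controls for some of these targets. It lay below the mean of controls 2 and 3, with a log2 difference of -1.14 for irx1b, -1.06 for the IRX1 target, -1.52 for ZV700S00000745 and -1.50 for irx5a. The median of all targets was -0.01 and the 5th percentile -0.55. The yolk syncytial layer genes hnf4a (-1.05), gata6 (-0.95) and mxtx2 (-0.73) were also low in that array, while apoa4b.1 (-0.28) and hhex (0.03) lay above that 5th percentile. Without control replicate 1 the irx1b difference was -4.03, so the value with all arrays is the smaller one.

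Markers of embryonic layers moved beside irx1b as follows. The yolk syncytial layer is a nucleate layer between yolk and blastoderm. Of its 8 markers 5 had a target, and 3 were lower in nanog-like MO1 embryos, where 0.39% of all targets passed as lower. The homeobox gene mxtx2, an early regulator of the layer, averaged 9.32 ± 0.68 in nanog-like MO1 embryos and 12.01 ± 0.42 in control MO embryos (SD, n = 3 each). The hnf4a target averaged 6.27 ± 0.31 in nanog-like MO1 embryos and 9.27 ± 0.61 in control MO embryos (SD, n = 3 each). The gata6 target, a zinc-finger factor gene, averaged 6.68 ± 0.09 in nanog-like MO1 embryos and 9.06 ± 0.55 in control MO embryos (SD, n = 3 each). Their log2 differences were -2.69, -3.00 and -2.37, and their limma adjusted p-values 0.0444, 0.0157 and 0.0206 in the order mxtx2, hnf4a, gata6. The mxtx2, hnf4a and gata6 calls were each lost when 1 of several arrays was left out, with limma adjusted p-values up to 0.183, 0.0895 and 0.110 in that order. The markers apoa4b.1 (-0.20) and hhex (-0.18) did not pass, and hhex was dim in both groups. The summed linear level of the 5 markers was 749 to 1408 in nanog-like MO1 embryos and 3880 to 6597 in control MO embryos. The brightest marker, mxtx2, makes up most of this sum, so it does not show a drop shared by all 5 markers. The part of this layer in the irx1b difference was not tested.

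Other layer markers did not pass. Across all targets, 10.3% had an unadjusted p under 0.05. None of the 9 measured enveloping layer markers passed the limma test (2 at an unadjusted p under 0.05, median 0.08). The claudin genes cldnf and cldne had the largest differences, 0.68 and 0.64. The summed level of the 9 enveloping layer markers was 36589 to 52966 in nanog-like MO1 embryos and 28744 to 50032 in control MO embryos. None of the 9 measured markers of later differentiated tissue passed (2 at an unadjusted p under 0.05), and 5 of them were dim in both groups. The muscle factor gene myod1 (0.45) and the insulin gene ins (-0.35) differed most. The summed level of the 9 later tissue markers was 833 to 989 in nanog-like MO1 embryos and 849 to 915 in control MO embryos. Of 5 measured oocyte and maternal genes none passed (0 at an unadjusted p under 0.05), with org at 0.46 and zar1 at -0.33, and a summed level of 19012 to 25793 in nanog-like MO1 embryos and 19241 to 22358 in control MO embryos.

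Genes that work around the Iroquois family were read from lists. Across all targets, 0.39% passed the limma test as lower, 0.257% as higher, and 10.3% had an unadjusted p under 0.05. Of 16 TALE homeobox genes outside the family (the Meis, Pbx, Pknox and Tgif relatives), 14 had a target and none passed the limma test (2 at an unadjusted p under 0.05). Their median log2 difference was 0.01. The largest was meis2a, a Hox cofactor gene, at -0.46 (limma adjusted p 0.625), a dim target with a mean of 6.64 over all arrays. Next came tgif1, a repressor gene of the TGF-beta response, at -0.45 (limma adjusted p 0.208). The meis2a value was -0.165 without control replicate 3. Proneural genes and their repressors are the classic context of Iroquois function in the neural plate. Of 20 measured, 3 were lower in nanog-like MO1 embryos, 1 was higher and 16 did not pass, with a median of -0.11. An unadjusted p under 0.05 was reached by 8 of the 20. The neural progenitor factor gene sox3 averaged 9.59 ± 0.38 in nanog-like MO1 embryos and 13.74 ± 0.12 in control MO embryos (SD, n = 3 each), a 17.8-fold lower intensity (limma adjusted p 0.00164). The hairy-related repressor gene her5 averaged 8.87 ± 0.45 in nanog-like MO1 embryos and 12.95 ± 0.21 in control MO embryos (SD, n = 3 each, limma adjusted p 0.00207). Its neighbour family member her11 averaged 10.02 ± 0.38 in nanog-like MO1 embryos and 12.92 ± 0.17 in control MO embryos (SD, n = 3 each, limma adjusted p 0.00362). The repressor gene her3 went the other way, at 12.72 ± 0.48 in nanog-like MO1 embryos and 9.32 ± 0.27 in control MO embryos (SD, n = 3 each), 10.5-fold higher (limma adjusted p 0.00519).

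Of 21 measured midbrain and hindbrain patterning genes, 1 was lower in nanog-like MO1 embryos, none was higher and 20 did not pass, with a median of -0.05. Across all targets 0.39% passed as lower. An unadjusted p under 0.05 was reached by 6 of the 21, where 10.3% of all targets reached it. The lower gene was cyp26a1, whose product degrades retinoic acid, at 10.02 ± 0.43 in nanog-like MO1 embryos and 12.55 ± 0.10 in control MO embryos (SD, n = 3 each, limma adjusted p 0.00683). Without control replicate 3 its limma adjusted p was 0.0511. Of 15 measured Wnt, BMP and dorsal signalling genes, 1 was lower, none was higher and 14 did not pass, with a median of -0.12. In this list 7 of the 15 had an unadjusted p under 0.05, against the same 10.3% of all targets. The lower gene was bambia, which encodes a pseudoreceptor that dampens BMP signalling, at 10.16 ± 0.27 in nanog-like MO1 embryos and 12.22 ± 0.22 in control MO embryos (SD, n = 3 each, limma adjusted p 0.00709), and its limma adjusted p without control replicate 3 was also 0.0511. None of the 11 measured reference genes passed the limma test (1 at an unadjusted p under 0.05), and their median was -0.14, with ppiaa at -0.34 and gapdh at -0.23.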

How the data were processed

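Total RNA of sphere stage embryos was hybridised to 6 NimbleGen arrays. Groups were taken from the sample titles. The values the authors deposited for every array are linear intensities, the average of a target's perfect-match probes without normalization between arrays, per the file headers. Between 384758 and 385461 probes per array were kept by the authors' filter, under a rule that the sources used here do not state. The authors also deposited a table of linear intensity values (RMA according to the submitters' processing notes, which give no version). In that table column medians lay between 179.4 and 200.3, and how its columns were scaled stays unknown beyond the name RMA. No detection call was used. The number of arrays limits the precision.

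Intensities were background corrected with normexp (offset 50), quantile normalized, taken to log2 and tested with limma 3.58.1 in R 4.3.3 (2-sided, group as the only term, 4 residual degrees of freedom). P-values were adjusted over all targets by Benjamini-Hochberg. Differences are nanog-like MO1 minus control MO, with 95% intervals from the fit. Permutation tests used scipy 1.17.1. Probe values were not used. Targets were named by RefSeq accession (2663), current symbol (4966), older symbol (5755) or map marker (1305), through a RefSeq gene table of assembly GRCz12tu used for names and chromosomes only. Positions were copied from the array design, which uses Zv7.

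The members and lists were chosen with earlier results of these data known. All Iroquois genes and nanog are named whatever their values. Of each list, members that passed are named (at most 6), or else the 2 with the largest difference, and all 5 measured yolk syncytial layer markers are given. Of neighbours that did not pass, the nearest with a gene symbol on each side is named, and med10 and nsun2 are named for their position. The 5 genes most alike in profile are named. Where targets shared a gene, the brightest on average stood for it, except for the nearest neighbours, which were taken by distance. The comparison of irx4a with irx4b was not run, since no target resolved to irx4a by name. Protein and promoter sequences were not analysed here.

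Alternatives changed the background correction, offset (16), scaling (75th percentile or reference genes), values (RMA), dim-target filter (25th percentile), variance model, array number range, replicate block and the arrays left out. On simulated data for this comparison with all 38489 targets, 32 of 100 targets changed by 1 on the log2 scale and 82 of 100 changed by 2 were recovered, none with the wrong sign, with 4 false calls. The changes were added to normalized log2 values with independent normal noise. The understated differences of dim targets and the array number ranges were not simulated.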

Additional observations from a re-analysis of the deposited data

How the results depend on the processing

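The irx1b difference kept its direction and its call under 14 of 15 alternatives, the exception being the array number range as a term (-3.70, limma adjusted p 0.208). Left-out arrays gave -4.03 to -3.46, with limma adjusted p-values of 0.00419 to 0.0497. The number of Iroquois genes lower was 2, the second being the IRX1 target, with offset 16, reference gene centring, the RMA values, dim targets left out, or a trended robust variance. It was 0 with the number range as a term and 1 to 2 when single arrays were left out, with 2 reached without control replicate 1. The number higher was 0 throughout. Since the copy that the IRX1 target measures is uncertain, a count of 2 lower may hold irx1b more than once. Over all targets, the count lower was 150, against 88 with the replicate block, 0 with the number range and 60 to 119 with arrays left out. The count higher was 99, against 162 with reference gene centring, 163 in the RMA values, 46 with the replicate block, 0 with the number range and 35 to 66 with arrays left out. In the number range fit, 1676 targets were lower and 1904 higher at an unadjusted p under 0.05. Reference gene centring moved the median of all targets to 0.144. Replicate numbers did not pair the samples (same-number correlations of -0.0133, -0.0967 and 0.171), and with them as a block the calls of irx1b and ZV700S00000745 were kept while those of bambia, gata6 and mxtx2 were lost. The cause of these moves was not tested. The left-out fits used fewer arrays, and in the range fit the group difference rested on 1 nanog-like MO1 array.

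Signs reversed only among targets that had not passed. With reference gene centring the differences were 0.087 for irx2a, 0.26 for irx5a, 0.16 for ZV700S00000741, 0.077 for nanog and 0.081 for med10. With 75th percentile scaling they were 0.11 for irx5a, 0.014 for ZV700S00000741 and -0.026 for amfra. In the RMA values they were 1.08 for irx5a, -0.22 for myod1, -0.01 for amfra and -0.004 for nsun2. With the number range they were 0.16 for irx5a, -0.028 for amfra and 0.20 for med10, and with offset 16 the value was 0.047 for irx5a. With arrays left out the ranges were -0.19 to 0.023 for irx2a, -0.51 to 0.49 for irx5a, -0.045 to 0.054 for irx6a and -0.26 to 0.037 for ZV700S00000741. They were -0.048 to 0.019 for nanog, -0.066 to 0.14 for ndufs6, -0.11 to 0.10 for amfra, -0.20 to 0.12 for med10 and -0.021 to 0.09 for nsun2. The irx2a and irx6a targets were dim in both groups, and whether signal over background limited them was not tested.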
